A study of Bos taurus with 111 samples.

Results

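Muscle gene expression was compared between efficient and inefficient Holstein-Friesian (HF) steers in their second high concentrate phase (H2). Residual feed intake (RFI) is the feed an animal eats above or below what its weight and growth predict (the labels also name back fat change in that prediction), so low-RFI (L-RFI) steers are efficient and high-RFI (H-RFI) steers inefficient. The members were chosen by the deposited labels for breed, diet and RFI class, and a library with under 1000000 gene counts was left out. That rule kept 16 of the 17 labelled HF-H2 libraries, 8 of 8 L-RFI and 8 of 9 H-RFI, among 111 libraries in the series. Each library was 1 biopsy of M. longissimus thoracis et lumborum from 1 steer at the end of a 70 d measurement period, sequenced as stranded mRNA. Both classes were castrated males offered the same ration to appetite, built on rolled barley (860 g/kg) with soya bean meal and molasses (each 60 g/kg) and a mineral and vitamin mix (20 g/kg), with some grass silage. The HF steers were 306 d old (SD 7.7) when the first feeding phase began and weighed 611 kg (SD 49.3) at the start of this one. The 12 most extreme steers per class had been picked for sampling, so intermediate steers are not represented. The class is that of the phase and not of the animal: steer 1920 was H-RFI in the first concentrate phase (H1) and L-RFI here, and steer 5632 was L-RFI in H1 and on zero-grazed grass (ZG) and H-RFI here.

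Skeletal muscle holds much of the body's protein and takes up much of its glucose and fat, and its fibres differ in the myosin and actin isoforms they build. Immediate early genes such as EGR1 and FOS encode transcription factors that are switched on within minutes of stretch, contraction, growth factors or injury. PDK4 is an enzyme that turns down the oxidation of glucose when fat is burnt. A biopsy also holds fat cells, vessels, nerve and blood cells, and in such bulk samples fewer cells of a type and less RNA per cell cannot be told apart.

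The 16 libraries held 10354026 to 38953671 reverse-strand gene counts, and the library left out, of H-RFI steer 5632, held 6062. A count of 3, taken as the lowest that could be read, corresponded to 0.0770 to 0.290 counts per 1000000 (CPM) in the 16 libraries and to 495 CPM in the one left out. Gene symbols were at hand for 151 genes, 112 of which passed the filter on low counts. The symbols came from the study's supplementary list of genes that it called in its own comparisons of this series. Members of the gene lists below were therefore preselected, and their values beside those of all genes are a description. None of the 10 defining markers fixed for skeletal muscle fibres was among the 151 genes, so the tissue label could not be checked against those markers.

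Before the classes were compared, the libraries were found to differ along a single axis. The first principal component of log2 CPM held 66.1% of the variance and the next 6.44%. Along it, the score followed the share of uniquely mapped reads that fell on no annotated gene, which ran from 6.71% in H-RFI steer 1811 to 19.6% in H-RFI steer 5588 (r = 0.949, rho = 0.968, permutation p = 1e-05 for both, the smallest that 100000 permutations can give, n = 16). Without steers 5588 and 5617, r was 0.92. Of the 9936 genes tested, 57.2% had a correlation beyond 0.7 in either direction with that share. For single genes, here and below, the share was taken as its logit. The mitochondrial transcript MT-CO3, a subunit of cytochrome c oxidase, ran from 10050 CPM in steer 5617 to 84430 CPM in steer 1913, and its log2 CPM correlated with the share at r = -0.91. PLN, which encodes the brake on the calcium pump of slow fibres and heart, ran the other way (r = 0.94), from 37.9 to 440.3 CPM.

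**Figure D1:**
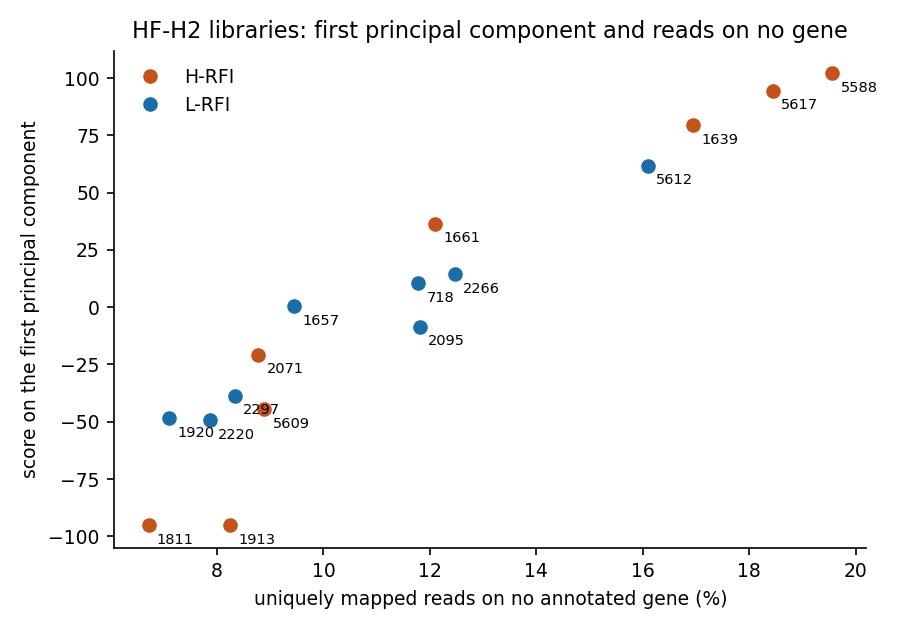
Score of each HF-H2 library on the first principal component of log2 CPM (y, no unit) against its uniquely mapped reads on no annotated gene (x, percent), with the steer number beside each point and the RFI class as colour. H-RFI steers 1811 and 1913 lie at the low end and 5588, 5617 and 1639 at the high end, while the L-RFI steers lie between, steer 5612 being the highest of them.

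The class means on this axis did not differ beyond the spread between steers. The mean share of reads on no gene was 10.6% ± 2.99 (SD, n = 8) in L-RFI and 12.5% ± 5.12 (SD, n = 8) in H-RFI steers (two-sided exact permutation p = 0.393). The exact permutation p was 0.656 for the component score, 0.749 for the log2 normalization factor and 0.430 for the log10 depth. The spread was wider in the H-RFI class, with an SD of the score of 82.1 against 37.9. In 85.7% of the 9936 genes, and in 85 of the 112 with a symbol, the SD of log2 CPM was larger among H-RFI than among L-RFI steers, with medians of 0.766 and 0.481 over all genes. Genes of a library vary together along this axis, so these counts are a description of 16 libraries.

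No gene of the 9936 tested passed the thresholds of the comparison, set at 0.1 for the adjusted p and 1.5 for the fold change in edgeR's quasi-likelihood test, and the smallest adjusted p was 1.00. The share called was 0%. At an unadjusted p under 0.05 there were 72 genes (0.725% of those tested), 45 higher in L-RFI (0.453%) and 27 lower (0.272%). edgeR's exact test also called 0 genes, with 77 at an unadjusted p under 0.05, and DESeq2 called 0 with 150. The study, with edgeR's exact test and the same thresholds, reported 4 genes for HF-H2. It describes 12 steers per class, whereas the series holds 17 HF-H2 libraries in all. The reason for the different count was not tested. The classes overlapped in every gene tested, since the number of genes whose 8 L-RFI values all lay on one side of the 8 H-RFI values was 0. Of all genes tested, 58.7% had a log2 fold change (L-RFI over H-RFI) below 0, with a median of -0.05. All values below are therefore differences that did not pass the test after adjustment, and they are given for their size and for the steers that carry them.

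The 4 genes followed in most detail, EGR1, MYH4, ACTC1 and PDK4, come from a list of genes that the study called between RFI classes. Neither their direction nor a small p is therefore independent evidence. That list is titled for HF-H2 but its rows are headed CH-H2, so its labels alone leave the assignment of these genes to HF-H2 uncertain. In this phase the study's printed tables place PDK4 under HF-H2 and MYH4 under CH-H2. Under HF-H2 they print EGR1 as lower and ACTC1 as higher in L-RFI, and under CH-H2 the reverse. The study's discussion, however, places the higher ACTC1 of HF steers in the grass phase. In the voom model of all groups below, EGR1, MYH4 and ACTC1 were at 1.70, 0.61 and -0.52 in HF-H2 (SE 0.68 to 0.87). Those signs are the ones printed under CH-H2. In CH-H2 itself the values were 0.10, -0.55 and 0.63 (SE 0.82 to 0.88). PDK4, printed as lower under HF-H2, was lower in both. The quasi-likelihood tests of the 4 genes gave an unadjusted p under 0.05 for 3 of 4, and the number past the thresholds was 0. The share over all genes was 0.725%, but the 4 were preselected by the study, so the shares are not comparable.

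EGR1, a zinc finger transcription factor of the immediate early class, had the smallest p of all genes tested. Its normalized level ran from 4.18 CPM through a median of 14.9 to 90.3 CPM in L-RFI steers. In H-RFI steers it ran from 1.07 through 5.88 to 9.84 CPM. Among L-RFI steers 6, all but 2095 and 2266, lay above the highest H-RFI steer, 1661, and the highest of all was L-RFI steer 718. The log2 fold change was 2.10 (SE 0.59), a 4.28-fold higher mean in L-RFI (quasi-likelihood p = 0.00235, adjusted p = 1.00). With each steer left out in turn it stayed between 1.31, without steer 718, and 2.21, and the largest of the 16 p-values was 0.0168. With limma voom and sample quality weights it was 1.51 (voom p = 0.0754, adjusted p = 0.652). On log2 CPM a two-sided exact permutation test gave p = 0.0160, or 0.0640 after adjustment over the 4 genes. EGR1 followed the axis of reads on no gene only weakly (r = 0.18), and with that share as a covariate its log2 fold change was 2.35 (quasi-likelihood p = 0.000303, adjusted p = 0.999).

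**Figure D2:**
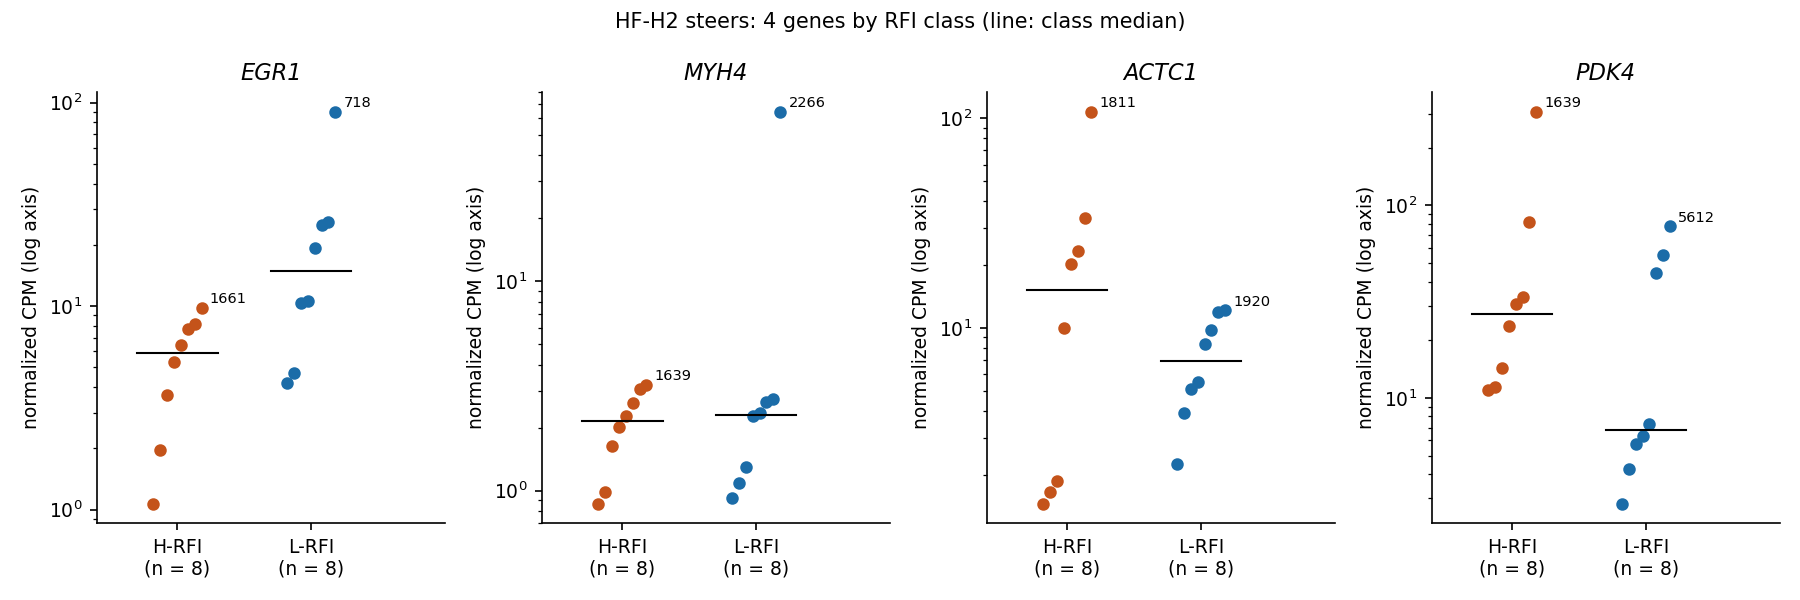
Normalized CPM (y, log axis) of EGR1, MYH4, ACTC1 and PDK4 in the 8 H-RFI and 8 L-RFI steers, with a line at the class median and the number of the highest steer of each class. In EGR1 most L-RFI points lie above the H-RFI points, whereas in MYH4 a single L-RFI steer, 2266 at 64.5 CPM, stands apart from the other 15.

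The immediate early genes as a group had small differences next to EGR1. Of 35 listed, 18 had a symbol and 16 were tested (NR4A2 and NR4A3 were below the filter). Among those tested, 13 had a log2 fold change above 0 and 3 below, and the median was 0.20 against -0.05 over all genes. The members had a symbol only because the study had called them in this series, so these medians are not a like comparison. Of the 16, 1 (EGR1) had an unadjusted p under 0.05. Among all genes tested, 0.725% had such a p and 58.7% lay below 0. FOS, which pairs with JUN proteins to form AP-1, ran from 4.68 through 17.0 to 117 CPM in L-RFI and from 3.38 through 10.4 to 30.2 CPM in H-RFI steers. For FOS, 3 L-RFI steers (5612, 718 and 2220) exceeded every H-RFI steer. Its log2 fold change was 1.42 (SE 0.68, quasi-likelihood p = 0.0506, adjusted p = 1.00), and 0.87 without steer 5612. With reads on no gene as covariate it was 1.75 (p = 0.00345, adjusted p = 0.999).

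FOSB, a FOS relative, had a log2 fold change of 0.82, which fell to 0.16 without steer 718. BTG2, an antiproliferative gene, had 0.78, and its 2 highest steers, 718 at 26.8 CPM and 5612 at 25.7 CPM, were both L-RFI. For JUNB, an AP-1 subunit, the value was 0.51, and for the orphan nuclear receptor NR4A1 it was 0.29. JUN itself had 0.20, with 32.3 to 100 CPM in L-RFI and 23.0 to 95.0 CPM in H-RFI steers. The remaining members, among them the matrix-associated CCN1 and CCN2, the RNA-binding ZFP36 and the NF-kappaB inhibitor NFKBIA, lay between -0.10 and 0.31. None of these genes had classes that separated, and the steers high for one were often those high for another.

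That co-variation was measured over the 16 steers for gene pairs named in the design. EGR1 and FOS correlated in log2 CPM with r = 0.775 and rho = 0.677 (permutation p = 0.00033 and 0.00493, adjusted over the 5 pairs to 0.000825 and 0.0123). Without steers 718 and 2071, the farthest from the EGR1 median, r was 0.631, and within the L-RFI and H-RFI steers it was 0.679 and 0.863. EGR1 correlated less with JUNB (r = 0.483, rho = 0.477, adjusted permutation p = 0.0948 and 0.107) and with NR4A1 (r = 0.401, rho = 0.391, adjusted permutation p = 0.157 and 0.171), and without the same 2 steers r was 0.413 and 0.225. Over all genes tested, FOS was the gene most correlated with EGR1 and FOSB the fifth, at r = 0.687, the others of the first 5 having no symbol at hand.

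MYH4 encodes the fastest of the myosin heavy chains. It ran from 0.918 through 2.30 to 64.5 CPM in L-RFI steers and from 0.868 through 2.14 to 3.21 CPM in H-RFI steers. A single L-RFI steer, 2266, was high, the next being at 2.73 CPM, and the other 15 steers overlapped fully. The log2 fold change of 2.22 (SE 0.84, quasi-likelihood p = 0.0160, adjusted p = 1.00) became -0.20 (p = 0.569) without steer 2266. DESeq2, which replaces extreme counts, gave -0.19 (p = 0.563), and the exact permutation p on log2 CPM was 0.630. High values also occurred elsewhere in the series: after normalization over all kept libraries the highest MYH4 value was 72.6 CPM in HF-H2 L-RFI steers, 184 CPM in Charolais (CH) L-RFI steers of H1, 119 CPM in CH H-RFI steers of H1 (mean 33.0 ± 42.3, SD, n = 10) and 96.2 CPM in CH H-RFI steers of H2, while no HF steer of H1 or ZG exceeded 6.13 CPM. Steer 2266 was sampled in H2 alone, so its level in another phase was not measured.

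ACTC1 is the cardiac alpha-actin, which skeletal muscle makes during development and regeneration. It ran from 2.24 through 6.96 to 12.2 CPM in L-RFI and from 1.46 through 15.1 to 107 CPM in H-RFI steers. For ACTC1, 4 H-RFI steers (1811, 5609, 1913 and 2071) exceeded every L-RFI steer, but 3 others, 5617, 1639 and 5588, lay below the lowest L-RFI steer. The log2 fold change was -1.76 (SE 0.74, quasi-likelihood p = 0.0288, adjusted p = 1.00), and -0.83 (p = 0.195) without steer 1811. The exact permutation p was 0.502. ACTC1 correlated with reads on no gene at r = -0.81, and the 3 H-RFI steers with the largest share were the 3 lowest for ACTC1, while steer 1811, with the smallest share, was the highest. With the share as covariate the log2 fold change was -1.06 (p = 0.0114, adjusted p = 0.999), and without the 4 libraries with the largest share (H-RFI 5588, 5617 and 1639 and L-RFI 5612) it was -2.37 (p = 0.000373, adjusted p = 0.925). Those 4 libraries include the 3 lowest H-RFI steers for ACTC1. A larger difference without them therefore followed from the choice of libraries, and the small p of that fit is no further evidence.

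Other genes of fibre type and muscle development showed smaller differences. MYH8, the perinatal myosin, had a log2 fold change of -0.18, with 5.66 to 44.1 CPM in L-RFI and 5.03 to 37.8 CPM in H-RFI steers. CHRND, the delta subunit of the muscle acetylcholine receptor, had -0.03. Of 14 slow fibre genes listed, 4 were tested: MYH6 at -0.17, MYL6B at -0.36, PLN at -0.39 and CSRP3, a Z-disc protein, at 0.16. Their median was -0.27, and 0 of the 4 had an unadjusted p under 0.05. MYH8 and ACTC1 were not positively related over the steers (r = -0.314, rho = -0.359, adjusted permutation p = 0.237 and 0.174, r = -0.397 without steers 1811 and 5617).

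PDK4, the kinase that inhibits the pyruvate dehydrogenase complex, ran from 2.82 through 6.82 to 78.1 CPM in L-RFI and from 11.03 through 27.3 to 308 CPM in H-RFI steers. For PDK4, 5 of the 8 L-RFI steers lay below the lowest H-RFI steer, while the other 3, 718, 2095 and 5612, lay between 44.5 and 78.1 CPM, above 6 of the 8 H-RFI steers. The highest was H-RFI steer 1639. The log2 fold change was -1.33 (SE 0.83, quasi-likelihood p = 0.125, adjusted p = 1.00), -1.94 without steer 5612 and -0.22 (p = 0.758) without steer 1639. The exact permutation p was 0.146. PDK4 correlated with reads on no gene at r = 0.68, and with that share as covariate its value was -0.88 (p = 0.111).

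The other genes of the fuel switch list gave values on both sides of 0. FOXO1, a transcription factor active in fasting, had a log2 fold change of -0.77, which was -0.12 without H-RFI steer 5588. SLC27A6, a fatty acid transporter, had -0.75, and PLIN5, which coats lipid droplets next to mitochondria, had 0.35. The median was -0.76 over the 4 genes tested, of 34 listed, with 0 at an unadjusted p under 0.05. FOXO1 also belongs to the growth restraint and proteolysis list, of which 5 of 22 genes were tested. That list is mixed, since it also holds genes that promote growth, such as IGF1 and PIM1. All 5 tested genes lay below 0 with a median of -0.45. Besides FOXO1 they were the stress-induced mTORC1 inhibitor DDIT4 at -0.61, GADD45A at -0.45, the kinase PIM1 at -0.45 and KLF11 at -0.14. Against 58.7% of all genes below 0, 5 of 5 is a description, and 0 of the 5 reached an unadjusted p under 0.05.

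Genes of fat synthesis and fat cells varied widely between steers of both classes. FASN, the fatty acid synthase, ran from 30.2 to 263.5 CPM in L-RFI and from 28.2 to 354 CPM in H-RFI steers, with a log2 fold change of 0.00 (SE 0.55). THRSP, a lipogenic gene that responds to thyroid hormone, ran from 4.63 to 92.3 CPM and from 6.62 to 74.7 CPM, with 0.15 (SE 0.64), and -0.49 without L-RFI steer 1657. ELOVL6, which lengthens fatty acids, had 0.43. Of 16 fat cell genes listed, 4 were tested: FABP4 (0.16), CIDEC (0.31), TRARG1 (0.21) and ANGPTL8 (0.62), with a median of 0.26. ANGPTL8 was at 20.6 CPM in L-RFI steer 1657 and had a log2 fold change of -0.23 without that steer. CIDEC, which fuses lipid droplets, and FABP4, the fatty acid carrier of adipocytes, correlated over the 16 steers with r = 0.896 and rho = 0.90 (permutation p = 1e-05 and 2e-05, adjusted 5e-05 and 0.0001, the first at the smallest that 100000 permutations can give). Without steers 5609 and 2297 r was 0.843. H-RFI steer 5609, L-RFI steer 1657 and L-RFI steer 2297 were the 3 highest for both genes, so high values occurred in either class. The summed level of the 3 fat cell markers matched, of 7 fixed, ran from 8.68 to 114 CPM in L-RFI and from 11.2 to 130 CPM in H-RFI steers (exact permutation p = 0.860).

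Of 49 genes listed for the respiratory chain, 3 were tested. The mitochondrially encoded MT-CO3 and MT-ND3 and the nuclear NDUFA3 had log2 fold changes of 0.10, 0.24 and -0.03. MT-CO3 ran from 17460 through 47450 to 79510 CPM in L-RFI and from 10050 through 37710 to 84430 CPM in H-RFI steers, so the H-RFI class held both the lowest and the highest steer. All 3 genes were lower along the axis of reads on no gene, with r between -0.91 and -0.84.

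**Figure D3:**
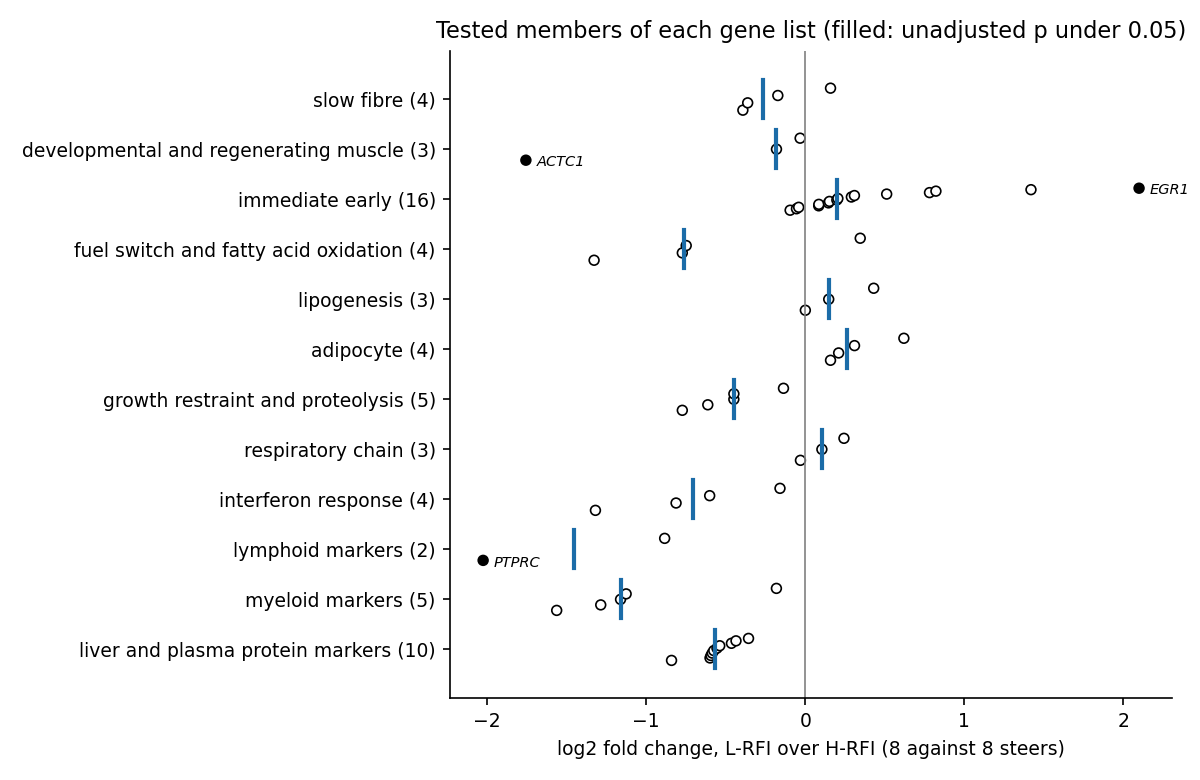
Log2 fold change (x, L-RFI over H-RFI, quasi-likelihood fit) of each tested member of the gene lists (rows, the fast fibre list with MYH4 alone not drawn, number of tested members in parentheses), with a blue line at the list median; filled points have an unadjusted p under 0.05. Filled points are EGR1, ACTC1 and PTPRC, the immediate early list has most members just above 0, and the lymphoid, myeloid and plasma protein markers all lie below 0.

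The leukocyte genes PTPRC and VNN2 gave the most negative values among genes with a symbol. PTPRC, the pan-leukocyte phosphatase CD45, ran from 0.459 through 1.204 to 6.03 CPM in L-RFI and from 0.171 through 0.770 to 28.0 CPM in H-RFI steers. For PTPRC, 3 H-RFI steers, 5588, 1639 and 1661, lay above every L-RFI steer, yet the H-RFI median was the lower one. Its log2 fold change was -2.03 (SE 0.93, quasi-likelihood p = 0.0434, adjusted p = 1.00), -0.15 (p = 0.859) with reads on no gene as covariate and -0.12 (p = 0.886) without the 4 libraries with the largest share. VNN2, a vanin of leukocytes, had -1.76 (SE 0.70, p = 0.0214, adjusted p = 1.00), with 15.7 CPM in steer 1639 and 10.1 CPM in steer 5588 against at most 3.54 CPM in L-RFI steers. Its value was -1.06 with the covariate and -0.25 (p = 0.655) without the 4 libraries. Those 4 libraries include steers 5588 and 1639, the highest for both PTPRC and VNN2. Smaller differences without them therefore followed from the choice of libraries.

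H-RFI steers 1639, 5588 and 1661 were also the 3 highest for LYZ (lysozyme, log2 fold change -1.56), for SRGN (the granule proteoglycan serglycin, -1.29), for LCP1 (leukocyte plastin, -1.16), for CD53 (a leukocyte tetraspanin, -1.13) and for CD3E (the T cell receptor epsilon chain, -0.88). The fifth tested myeloid marker, PLEK (pleckstrin, -0.18), did not share this: its highest steers were H-RFI 1639 at 2.15 CPM and L-RFI 5612 at 1.80 CPM, and steer 5588 was at 0.826 CPM. All 5 tested myeloid markers (median -1.16) and both tested lymphoid markers lay below 0, and 1 of the 7, PTPRC, had an unadjusted p under 0.05. Of all genes tested, 58.7% lay below 0 and 0.725% had such a p. The markers were preselected and most were highest in the same 3 steers, so these counts are a description. The summed level of the 4 lymphoid markers matched, of 11 fixed, ran from 1.38 through 3.87 to 12.2 CPM in L-RFI and from 1.46 through 2.66 to 50.4 CPM in H-RFI steers. For the 8 myeloid markers matched, of 16 fixed, it ran from 5.51 through 12.2 to 35.4 CPM and from 3.31 through 10.1 to 129 CPM. Both sums peaked in steer 1639, their medians were lower in H-RFI, and their means did not differ beyond the spread (exact permutation p = 0.539 and 0.620, both 0.868 after adjustment over 7 marker sums). The red cell marker HBD was at 0 in every L-RFI steer and at most 0.0516 CPM in H-RFI steers, below the floor of 3 counts. It was the only 1 matched of 8 red cell markers fixed, so the red cell content of the biopsies was not assessed. The endothelial transcription factor SOX18 ran from 0.401 to 6.54 CPM in L-RFI and from 0 to 4.17 CPM in H-RFI steers (log2 fold change 0.45, SE 0.75). The matrix gene POSTN was at most 1.03 CPM in any steer. Each was the only 1 matched of 10 markers fixed for its cell type. No marker fixed for pericytes or nerve, and no gene of glucose use, had a symbol at hand.

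Of 30 interferon-responsive genes listed, 6 had a symbol and 4 were tested. UBD and CASP4 had H-RFI steers 1639, 5588 and 1661 as their 3 highest, and IDO1 and MX1 did not. UBD, a ubiquitin-like modifier, had a log2 fold change of -1.32, CASP4, an inflammatory caspase, -0.81, IDO1, which degrades tryptophan, -0.60 and the antiviral GTPase MX1 -0.16, with a median of -0.71 and 0 of the 4 at an unadjusted p under 0.05. IDO1 was at 15.7 CPM in steer 1639 and at most 3.82 CPM elsewhere. UBD was at 9.66 and 9.13 CPM in steers 1639 and 5588, and at most 3.45 CPM elsewhere. MX1 was highest in H-RFI steer 5609, at 4.99 CPM.

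Transcripts of liver-secreted plasma proteins were highest in a single H-RFI steer. ALB, the serum albumin gene, was at 1265 CPM in steer 5588 and between 17.8 and 286 CPM in the other 15. Steer 5588 was also the highest for AHSG, FGB, FGG, HPX, ORM1, PLG, CP, C5 and VTN, the other 9 markers matched, of 18 fixed in all. All 10 had log2 fold changes below 0, between -0.84 and -0.36 with a median of -0.57, and 0 of the 10 had an unadjusted p under 0.05. The shares over all genes tested were 58.7% and 0.725%. Since steer 5588 was the highest for all 10, the counts are a description. For ALB the value was -0.84 with all steers and 0.61 without steer 5588, and for VTN, vitronectin, -0.60 and 0.11. The summed level ran from 59.2 through 158 to 484 CPM in L-RFI and from 31.6 through 152 to 1840 CPM in H-RFI steers (exact permutation p = 0.973). The covariate and leave-out fits are given as values. The part of leukocyte, plasma protein and reads-on-no-gene levels in the class differences was not tested.

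Further genes with a symbol and a small p were high in a few H-RFI steers. BDP1, a subunit of the RNA polymerase III factor TFIIIB, had a log2 fold change of -1.36, RESF1, a silencer of retroelements, -1.28, SLC4A7, a sodium bicarbonate cotransporter, -1.05 and ARRDC2, an arrestin domain protein, -1.01, with p between 0.0634 and 0.0990. BDP1, RESF1 and SLC4A7 had steers 5588, 5617 and 1639 as their 3 highest, correlated with reads on no gene at r between 0.88 and 0.90, and had log2 fold changes of -0.14, -0.06 and -0.15 with that share as covariate. Without steer 5588 they were at -0.86, -0.76 and -0.54 (p between 0.209 and 0.324). ARRDC2 was high in other steers, H-RFI 1639 at 94.0 CPM and 1811 at 49.2 CPM, and had a log2 fold change of -0.97 with the covariate but -0.38 (p = 0.453) without steer 1639. Without the 4 libraries with the largest share, which include the 3 highest steers for both genes, RESF1 was at 0.28 and SLC4A7 at 0.52.

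On the other side, GSTM3, a glutathione S-transferase, ran from 13.8 through 90.6 to 192 CPM in L-RFI and from 11.7 through 55.7 to 82.6 CPM in H-RFI steers. In GSTM3, 5 L-RFI steers lay above every H-RFI steer, and L-RFI steers 5612 and 718 were among the 3 lowest of all. Its log2 fold change was 0.83 (SE 0.48, quasi-likelihood p = 0.0999, adjusted p = 1.00), with a range of 0.59 to 0.94 when each steer was left out, and 1.15 (p = 0.0340, adjusted p = 0.925) without the 4 libraries.

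Among genes with no symbol at hand, ENSBTAG00000043951 had a log2 fold change of 1.21 (SE 0.35, quasi-likelihood p = 0.00260), with medians of 4.82 and 1.96 CPM in L-RFI and H-RFI steers. ENSBTAG00000015311 had 1.51 (SE 0.43, p = 0.00261), with medians of 1.74 and 0.571 CPM. ENSBTAG00000027991 had -0.61 (SE 0.22, p = 0.0126) and ENSBTAG00000032253 had -0.59 (SE 0.22, p = 0.0140). These were picked for their small p, all 4 had adjusted p = 1.00, and their levels were low.

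**Figure D4:**
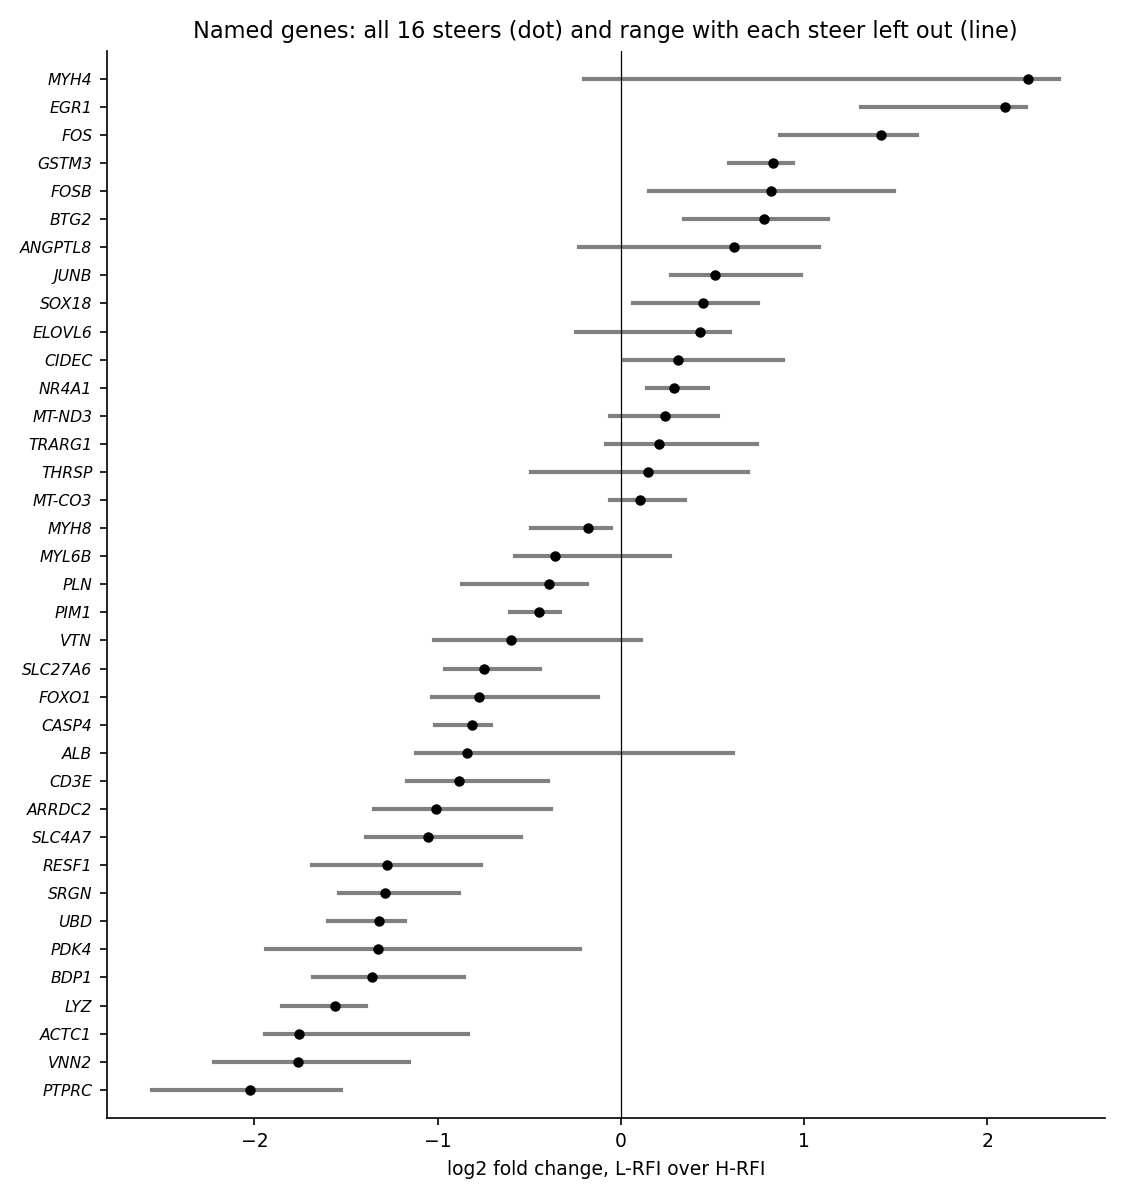
Log2 fold change (x, L-RFI over H-RFI) of 37 named genes with a symbol, from all 16 steers (dot) and as the range over the fits that each leave out 1 steer (grey line; 16 fits, or 8 for UBD, LYZ and CASP4, which fell below the filter in the others). MYH4 runs from -0.20 to 2.39 and ALB from -1.12 to 0.61, while EGR1 stays above 1.31.

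Leaving out each steer in turn gave the range of each named gene. Of 41 named genes, 31 kept their direction in every fit in which they were tested. In 5 of them, EGR1 and the 4 unnamed identifiers, the unadjusted p was under 0.05 in all 16 fits. A kept direction did not mean that no single steer mattered: PDK4 went from -1.33 to -0.22 without steer 1639, and FOSB from 0.82 to 0.16 without steer 718. Some genes that crossed 0, such as MT-CO3 at 0.10, were near 0 with all steers. The 4 identifiers and most other named genes were chosen by p on these same steers, so the count describes the choice as well.

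Whether the RFI difference in HF-H2 departed from that in other groups was asked with 1 voom model of all 12 breed, diet and RFI groups, with the steer as a random effect. The number of genes with an adjusted p under 0.1 was 0 of 10287 for each of HF-H2 minus HF-H1, HF-H2 minus HF-ZG and HF-H2 minus CH-H2, with 238 (2.31%), 117 (1.14%) and 105 (1.02%) at an unadjusted p under 0.05. edgeR's quasi-likelihood test without the steer also called 0 in each, with 167, 167 and 125. On this scale the log2 fold change of EGR1 was 1.70 (SE 0.68) in HF-H2, -0.21 (SE 0.62) in HF-H1, 0.95 (SE 0.61) in HF-ZG and 0.10 (SE 0.82) in CH-H2. The EGR1 difference between HF-H2 and HF-H1 was 1.91 (SE 0.91, voom p = 0.0386, adjusted p = 1.00).

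PDK4 had -1.28 (SE 0.78) in HF-H2 and 0.64 (SE 0.73) in HF-H1, a difference of -1.92 (SE 1.05, voom p = 0.0714, adjusted p = 1.00). VNN2 had -1.04 (SE 0.58) and 0.51 (SE 0.52), a difference of -1.55 (SE 0.77, voom p = 0.0472, adjusted p = 1.00). THRSP differed between HF-H2 and CH-H2 by 2.97 (SE 1.34, voom p = 0.0297, adjusted p = 1.00), with -0.26 (SE 0.77) in HF-H2 and -3.22 (SE 1.10) in CH-H2. For ACTC1 and MYH4 the 3 differences lay between -1.16 and 1.16, with SEs of 0.96 to 1.24.

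**Figure D5:**
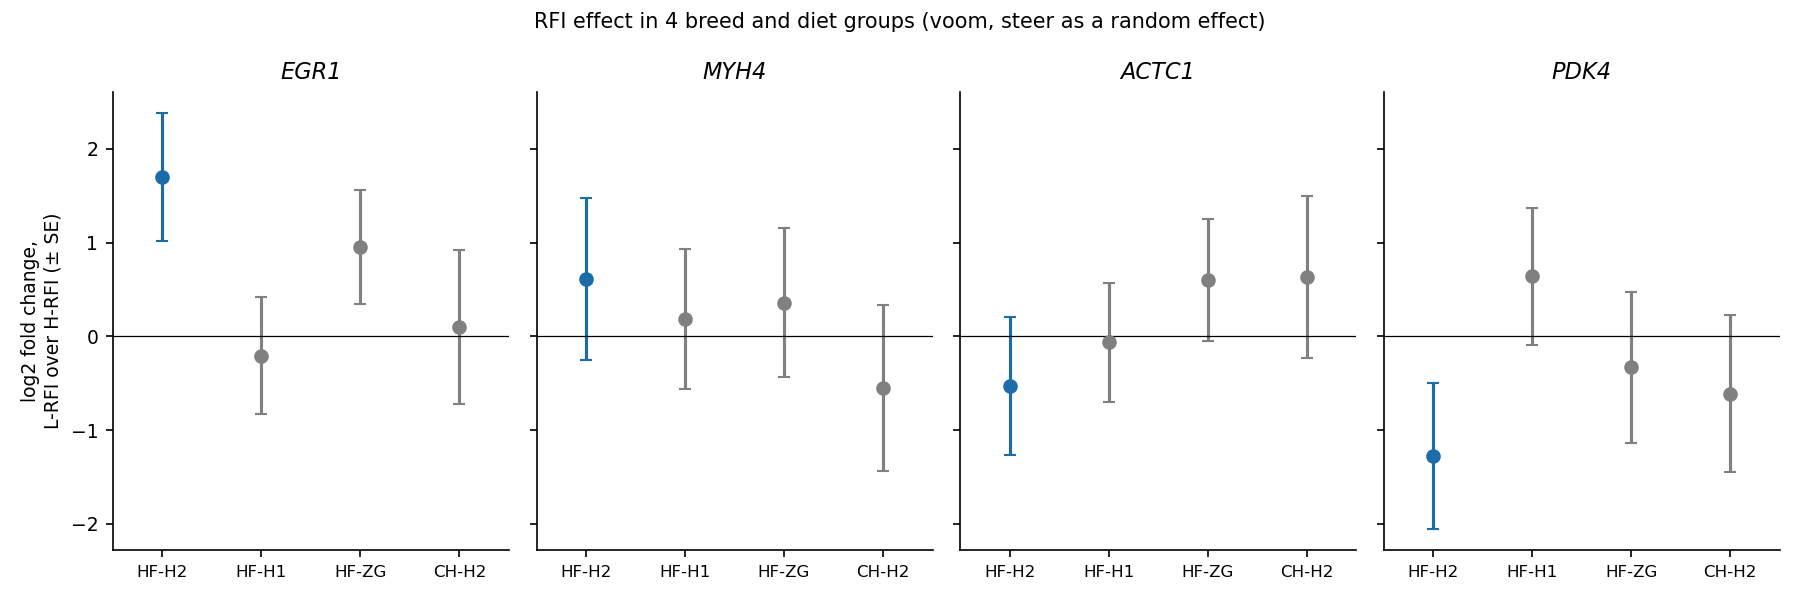
Log2 fold change, L-RFI over H-RFI, of EGR1, MYH4, ACTC1 and PDK4 (y, point with SE bar) in HF-H2 (blue) and in HF-H1, HF-ZG and CH-H2 (grey), from the voom model with the steer as a random effect. EGR1 is 1.70 in HF-H2 and PDK4 is -1.28, and every bar of the other 3 groups lies nearer to 0 than the EGR1 point of HF-H2.

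With all kept libraries normalized together, the levels in the other HF phases put these values in context. The EGR1 median was 16.5 CPM in HF-H2 L-RFI and 6.67 CPM in HF-H2 H-RFI steers. It was 7.08 and 8.21 CPM in the L-RFI and H-RFI steers of HF-H1, and 13.5 and 4.95 CPM in those of HF-ZG, where 1 H-RFI steer reached 301.5 CPM. PDK4 medians were 7.71 and 31.1 CPM in the L-RFI and H-RFI steers of HF-H2, 74.4 and 54.5 CPM in HF-H1, and 204.5 and 213 CPM in HF-ZG. H1 and H2 used the same ration but differed in age, weight and order, and ZG differed in diet as well, so these cannot be told apart here.

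Of the 16 steers, 7 had a usable library in another phase. All 5 that were also sampled in H1 had less PDK4 in H2: steer 1811 went from 383 to 12.6 CPM, 2071 from 221 to 26.1, 2095 from 376 to 64.1, 2220 from 74.4 to 3.07 and 1920 from 62.1 to 6.30 CPM. Of the 2 also sampled in ZG, steer 5612 went from 436 to 92.1 CPM, and steer 1639 went the other way, from 57.0 to 369 CPM. Steer 1811, the highest for ACTC1 in H2 at 119 CPM on this scale, was at 7.67 CPM in H1, and its FOS went from 174 to 3.98 CPM. EGR1 in steer 5612 was 28.4 CPM in ZG and 29.5 CPM in H2. PTPRC in steer 1639 was 32.6 CPM in ZG and 30.7 CPM in H2, so its high value was present in both biopsies. Each steer gave 1 biopsy per phase, so the spread within a steer and phase was not measured.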

How the data were processed

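Muscle biopsies of 17 HF-H2 steers, among 111 libraries of the series, were analysed. The authors made stranded mRNA libraries, aligned the reads with STAR (2.5.1 per the submitters' processing notes) and deposited raw counts per gene for 24616 Ensembl genes, neither normalized nor filtered. The build is UMD3.1 in those notes and ARS-UCD1.2 in the study's methods, so no coordinates are given. Reverse-strand counts were used (98.3% to 99.1% of stranded gene counts in the 16 libraries kept), and 0 of 5460 pairs of kept libraries were identical. Groups and steer numbers were taken from the labels, and each steer is a separate animal.

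The filter asked for 1 CPM or more in 50% of libraries or more, TMM factors were computed, and L-RFI was compared with H-RFI by the quasi-likelihood test of edgeR 4.0.16 in R 4.3.3, with Benjamini-Hochberg adjustment. The common biological coefficient of variation was 0.496, and 0.306 with the share of reads on no gene (logit) as covariate. The RFI effects of groups were compared with limma 3.58.1 voom, with the steer as replicate block, since the labels number the same animal across phases (consensus correlation 0.138). DESeq2 1.42.0 was an alternative. Correlations used log2 CPM with a prior count of 2, and those of single genes with the share of reads on no gene used its logit. Permutation tests on 2 classes of 8 used all 12870 arrangements. Marker sums were tested as log2(sum of CPM + 1). Levels are not per length and were not compared between genes. Limits of 3 counts cover counting error only. The fits were tested on simulated data with known changes. Figures were drawn with matplotlib 3.10.9.

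The members, lists and tests were chosen with earlier results of these data known. Symbols for 159 genes came from the study's supplementary list of the genes it called in this series, and 151 of them were in the files. Many list members therefore had no symbol, and 4 of 9 planned gene pairs were not run. Named were the study's 4 genes, list members with p under 0.05 (otherwise the 2 smallest p of each list), the 10 genes with a symbol and the smallest p in each direction, and up to 2 identifiers in each direction, of which 2 genes are not reported here. Other genes of the lists were named after their values were seen. Alternatives were other tests, normalizations, filters and strand counts, all libraries, 1 model of all groups, other thresholds and leaving out each steer. Added after seeing the data were the covariate, leaving out the 4 libraries with the largest share of reads on no gene, the exact test on all libraries, and the permutation tests of the 4 genes and of the library measures.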

Additional observations from a re-analysis of the deposited data

Results flagged for a closer look

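Among 82 sets of 8 steers (41 named genes in each class, on log2 CPM), 4 held a steer whose gap to the next was large against the range of its class (Dixon's test at the 95% level, which chance passes in about 1 of 20 sets). MYH4 was at 64.5 CPM in L-RFI steer 2266 with the next steer at 2.73 CPM. BTG2 was at 14.4 CPM in H-RFI steer 1661 with the next at 6.37 CPM, and its log2 fold change was 1.13 without that steer and 0.34 (p = 0.491) without L-RFI steer 5612. FOXO1 was at 12.0 CPM in H-RFI steer 5588 with the next at 3.55 CPM. ENSBTAG00000032253 was at 1.86 CPM in L-RFI steer 2220, the lowest of its class, with the next at 3.33 CPM. The causes were not tested.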

How the results depend on the processing

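In HF-H2, 0 genes passed the thresholds in the main comparison and 0 under every alternative run, with 48 (without H-RFI steer 5588) to 185 genes (without H-RFI steer 1811) at an unadjusted p under 0.05 when each steer was left out, 687 (600 higher) with limma voom and sample quality weights, 231 with 1 model of all groups, 515 without a filter on low counts and 271 with reads on no gene as covariate. At that p the split was 45 higher and 27 lower in L-RFI in the main comparison, and 34 higher and 53 lower with RLE size factors. The main comparison sets different steers against each other, so no paired analysis was possible there because no steer is in both classes of the phase. In the differences of the RFI effect, the fit with no replicate block called 0, 0 and 0 genes, with 203, 120 and 121 at an unadjusted p under 0.05 for HF-H1, HF-ZG and CH-H2, so the pairing by steer changed no call. For HF-ZG, fitting only the 4 groups with the replicate block called 1 gene, ENSBTAG00000043564, with a log2 difference of 6.26 (adjusted p = 0.0521, consensus correlation 0.856). That fit had 763 genes at an unadjusted p under 0.05, against 117 in the main fit, where the consensus correlation was 0.138. Its block rests on steers 1639 and 5612, the only ones with kept libraries in both phases. For Library depth of the 2 classes, the log10 difference was -0.07, and 0.32 with all HF-H2 libraries, since the library left out is H-RFI.

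Among single genes the direction turned in the following, and the cause was not tested. MYH4 was at -0.19 with DESeq2. With limma voom and sample quality weights MYL6B was at 0.055, ELOVL6 at -0.37, THRSP at -0.36, ALB at 0.51 and VTN at 0.25. With reads on no gene as covariate PLN was at 0.093. Without the 4 libraries with the largest share, log2 fold changes were -0.13 for NR4A1, 0.065 for SRGN, 0.28 for RESF1, 0.52 for SLC4A7, 0.17 for UBD, 0.0086 for PLN, 0.058 for MYH8, 0.19 for SLC27A6, -0.081 for THRSP, -0.15 for MT-ND3, -0.29 for MT-CO3, 0.14 for CD3E, 0.87 for ALB, 0.44 for VTN, -0.0065 for TRARG1 and -0.095 for SOX18. With each steer left out the ranges that crossed 0 were -0.20 to 2.39 for MYH4, -0.23 to 1.08 for ANGPTL8, -0.58 to 0.27 for MYL6B, -0.24 to 0.59 for ELOVL6, -0.49 to 0.70 for THRSP, -0.059 to 0.53 for MT-ND3, -0.060 to 0.35 for MT-CO3, -1.12 to 0.61 for ALB, -1.02 to 0.11 for VTN and -0.083 to 0.74 for TRARG1. The other 1121 values of single genes under the alternatives kept direction and side of the threshold, but their size could change. With limma voom and sample quality weights FOS was at 0.45 (voom p = 0.580), ACTC1 at -0.45 (p = 0.488) and MYH4 at 1.06 (p = 0.321). PDK4 was larger in size with these weights, at -1.80 (voom p = 0.0411, adjusted p = 0.652). Depth limits genes under about 0.290 CPM in the shallowest library kept.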
